A study of Mus musculus with 9 samples.

Results

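The genes described here are 39 genes of glucose metabolism and the hypoxia response: glucose and lactate transporters, glycolytic enzymes, the hypoxia-inducible factors (HIF), the hydroxylases that control them and genes they are known to activate. Members were the probe sets whose only gene symbol in the platform annotation is on this list. They comprised 77 probe sets of 36 genes, of 18194 genes with such a probe set. Of the 36, Gapdh was found through 3 control probe sets only and was not tested, so that 35 genes with 74 probe sets entered the tests among 18193 genes. Bnip3l had only probe sets shared with a pseudogene, and Eno1 and Gpi1 were not analysed here. Each gene was tested by its probe set of highest mean.

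Expression was measured on 9 arrays of small intestinal mesenchyme, the connective tissue and muscle precursor layer under the gut epithelium, from C57Bl/6J mouse embryos at E18.5. In all 3 groups the tissue had been freed of epithelium and cultured on collagen with serum for 48 h, and it was treated for 24 h with Shh (Sonic hedgehog ligand, 3 arrays), Ihh (Indian hedgehog ligand, 3 arrays) or Vehicle (3 arrays). Each treatment had 6 wells, which were randomly combined into 3 pools, so p-values measured the spread between pools of wells. The sources used here do not give ligand dose, the vehicle's composition or the oxygen level of the cultures. The study asked which mesenchymal genes hedgehog signalling regulates.

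Glycolysis splits glucose into pyruvate in the cytosol, and lactate dehydrogenase then turns pyruvate into lactate, which leaves the cell through monocarboxylate transporters. HIF factors raise transcription of most enzymes of this route when oxygen is low. With oxygen present, prolyl hydroxylases mark the HIF alpha subunits for destruction, so HIF activity is set mainly at the protein level and is read from its target genes.

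Array medians lay between 5.87 and 5.92 log2, and Pearson's r of any pair of arrays was 0.991 to 0.998 (over probe sets, which are not replicates). Ptch1, a hedgehog target and receptor, was at 10.35 to 10.98 log2 with the ligands and at 9.06 to 9.25 with Vehicle, and Gli1, a target that encodes an effector of the pathway, was at 5.63 to 6.56 with the ligands and at 5.01 to 5.44 with Vehicle. Both rose with the ligands together (limma, adjusted p = 0.000622 and 0.0443). The summed level of 10 mesenchyme markers was 15.48 to 15.63 log2 on ligand arrays and 15.60 to 15.69 on Vehicle arrays. For both ligands 8 of the 10 were below Vehicle and none passed limma's test. At an unadjusted p 3 were lower, against 8.41% of all genes, and 1 was higher. In 2 all ligand arrays lay below all Vehicle arrays, against 3.80% of all genes. Sex-linked transcripts showed that the pools differed in the sex of their embryos: Xist was at 11.31, 11.24 and 6.43 log2 in Shh 1, 2 and 3, at 10.04, 10.28 and 10.66 in Ihh 1, 2 and 3, and at 10.83, 6.34 and 6.48 in Vehicle 1, 2 and 3. The Y-linked Eif2s3y was lowest in Shh 1 and Shh 2, at 3.24 and 3.17 log2, and lay between 6.24 and 8.98 on the other arrays.

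The promoters of the 4 members with the smallest p for both ligands against Vehicle are shown because these members lay below Vehicle together and because HIF binds a short core motif. Each is a RefSeq window of GRCm38.p6 from 250 bases before to 50 bases after an annotated start, on the gene's strand. Capitals mark the letters ACGTG or GCGTG on either strand, so that a match on the other strand reads CACGT or CACGC. Pkm, which makes pyruvate, is shown at chr9:59656977-59657276 (plus strand). Slc16a3, the lactate exporter, is shown at chr11:120948817-120949116 (plus strand). Hk1, the first enzyme of glycolysis, is shown at chr10:62340372-62340671 (minus strand), and Pfkl, of the phosphofructokinase step, at chr10:78009758-78010057 (minus strand). Pkm and Hk1 each have 2 windows in the table, and the one with more matches was taken.
Pkm: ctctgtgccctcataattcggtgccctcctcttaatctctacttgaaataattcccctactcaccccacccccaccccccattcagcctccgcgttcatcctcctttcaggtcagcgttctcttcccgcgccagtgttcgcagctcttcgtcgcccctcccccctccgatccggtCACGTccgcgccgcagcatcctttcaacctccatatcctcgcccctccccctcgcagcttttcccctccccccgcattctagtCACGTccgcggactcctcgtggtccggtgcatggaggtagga
Slc16a3: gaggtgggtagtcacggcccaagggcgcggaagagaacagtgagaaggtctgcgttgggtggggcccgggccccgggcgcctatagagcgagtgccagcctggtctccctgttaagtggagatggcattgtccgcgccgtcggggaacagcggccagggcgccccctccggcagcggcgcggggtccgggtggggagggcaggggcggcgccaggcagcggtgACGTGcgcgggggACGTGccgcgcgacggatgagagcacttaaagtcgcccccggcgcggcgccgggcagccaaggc
Hk1: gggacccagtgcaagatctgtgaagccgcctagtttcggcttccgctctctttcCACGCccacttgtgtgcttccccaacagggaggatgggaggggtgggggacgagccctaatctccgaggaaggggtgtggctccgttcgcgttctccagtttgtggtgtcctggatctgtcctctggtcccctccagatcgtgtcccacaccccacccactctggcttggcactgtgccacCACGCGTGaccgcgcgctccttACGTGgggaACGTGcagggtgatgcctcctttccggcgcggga
Pfkl: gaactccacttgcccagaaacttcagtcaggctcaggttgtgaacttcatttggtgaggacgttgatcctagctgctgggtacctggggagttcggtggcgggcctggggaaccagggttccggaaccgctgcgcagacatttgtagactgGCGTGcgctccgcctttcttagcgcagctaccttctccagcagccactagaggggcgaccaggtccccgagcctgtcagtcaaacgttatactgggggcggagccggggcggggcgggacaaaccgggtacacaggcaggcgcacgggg

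In Slc16a3 the ACGTG letters begin 27 and 14 bases before the start, in the same strand as the gene. Pkm holds 2 matches to ACGTG, both on the other strand, and Hk1 holds 2 on its own strand after the start. Pfkl holds no ACGTG and 1 GCGTG. Of the 39 listed members 35 had a window. ACGTG stood in 29 of their 53 windows (54.7%), against 19.6% of all 32851 windows of the same length, and either motif in 77.4% against 43.8%. The list was drawn up from genes known to respond to HIF, and base composition was not matched, so these shares describe the list. A match is not a binding site.

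Both ligands together were compared with Vehicle to ask which of these genes hedgehog ligand moved. Pkm and Slc16a3 fell and no member rose: 2 of 35 genes passed limma's test at an adjusted p of 0.05, against 1.07% of all genes that passed downward. Many more members lay lower without passing. At an unadjusted p of 0.05, 20 of 35 members were lower (57.1%), against 8.41% of all genes, and none was higher by the probe set tested. The median log2 difference of the members was -0.23, against 0.00 for all genes, and 32 of 35 were below 0. In 9 members every ligand array lay below every Vehicle array (25.7%, against 3.80% of all genes): Slc16a3, Hk1, Hk2, Pfkl, Aldoa, Pgk1, Pkm, Ldha and Hif1a. In bulk tissue a smaller number of cells of a type and less RNA per cell cannot be told apart.

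Pkm encodes the muscle-type pyruvate kinase, the last step of glycolysis. Its level was 11.77, 11.69 and 11.56 log2 with Shh, 11.84, 11.82 and 11.79 with Ihh, and 12.09, 12.18 and 11.96 with Vehicle. Every ligand array was below every Vehicle array, and the 3 Shh arrays were below the 3 Ihh arrays. It fell by 0.33 log2 (SE 0.06), 1.26-fold, with limma's adjusted p at 0.0348. Slc16a3, the monocarboxylate transporter MCT4 of glycolytic cells, was at 5.44, 5.64 and 5.55 log2 with Shh, 5.66, 5.36 and 5.46 with Ihh, and 6.10, 6.15 and 5.78 with Vehicle. Again all ligand arrays were the lower ones, and here Shh and Ihh overlapped. It fell by 0.49 log2 (SE 0.10), 1.41-fold (limma, adjusted p = 0.0373). It was read by 1 dim probe set, with all ligand arrays below the array medians, and RMA compresses low levels. The part of this in the size of the change or in the call was not tested.

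Each call was lost in 7 of the 9 fits with 1 array left out, while both differences stayed below 0 in all 9. With each array left out in turn, Pkm stayed past the threshold only without Shh 1 or without Vehicle 3, with limma's adjusted p from 0.0174 to 0.171. Its difference ran from -0.39 to -0.28 log2, and that of Slc16a3 from -0.61 to -0.42. Slc16a3 stayed past the threshold only without Ihh 1 or without Vehicle 3, with limma's adjusted p from 0.00669 to 0.181. The number of members that fell was 0 without Shh 2, Shh 3, Ihh 2, Ihh 3, Vehicle 1 or Vehicle 2, 1 without Shh 1, 2 without Ihh 1 and 6 without Vehicle 3. Of all genes, 195 fell with all arrays, 72 to 128 in the fits with 0 members and 349 without Vehicle 3. The count at an unadjusted p was 11 without Vehicle 1 and 25 without Vehicle 3, and 31 to 33 members were below 0 whichever array was left out.

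**Figure D1:**
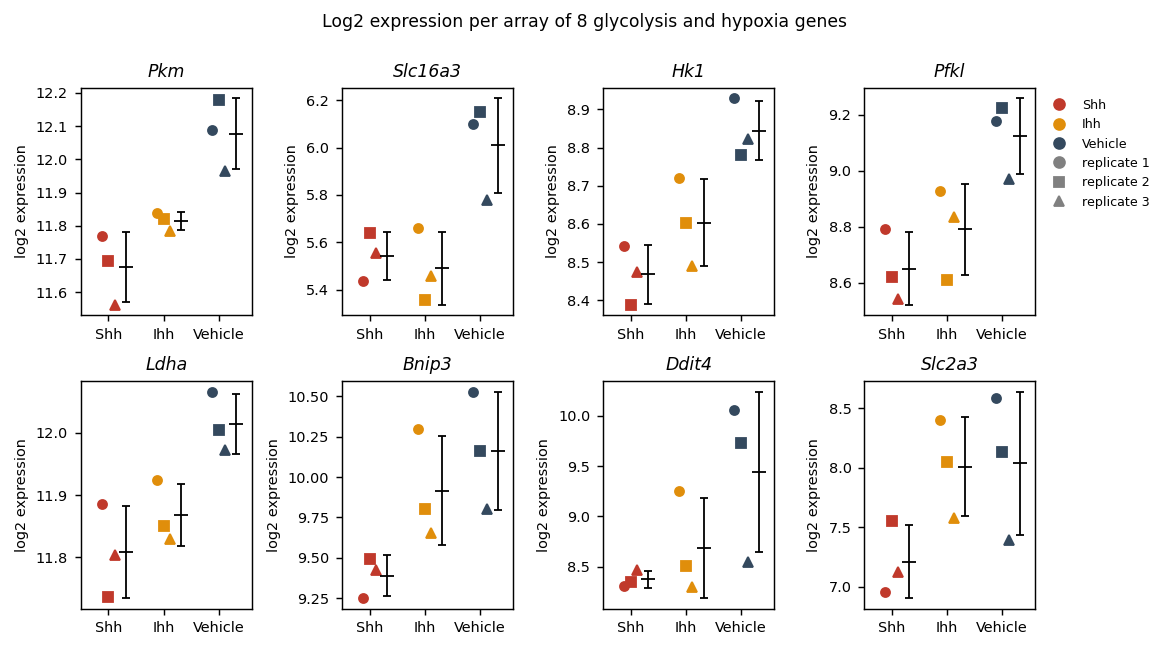
Log2 expression (vertical axis, with its own scale per gene) of 8 members on the Shh, Ihh and Vehicle arrays; symbols are single arrays and black bars the group mean ± SD (n = 3 each). Pkm, Slc16a3, Hk1, Pfkl and Ldha have every ligand array below every Vehicle array, whereas Bnip3, Ddit4 and Slc2a3 spread widely over the Vehicle arrays, with 8.55 to 10.06 log2 for Ddit4.

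Among the transporters, Slc2a1, the basal glucose transporter GLUT1, was at 10.05, 9.78 and 10.06 log2 with Shh, 10.15, 9.87 and 9.93 with Ihh, and 10.47, 10.06 and 10.12 with Vehicle. Its difference of -0.24 log2 (SE 0.11) did not pass limma's test (adjusted p = 0.349), and Ihh 1 lay above Vehicle 2 and Vehicle 3. Without Vehicle 1 it was -0.12 (limma adjusted p = 0.797). Its other probe sets gave -0.35 (SE 0.10), with ligand arrays at 9.37 to 9.70 log2 below Vehicle arrays at 9.77 to 10.12, and -0.34 (SE 0.10), with overlap. Slc2a3, the high-affinity transporter GLUT3, had 6.95, 7.55 and 7.12 log2 with Shh, 8.40, 8.05 and 7.57 with Ihh, and 8.58, 8.13 and 7.39 with Vehicle. All Ihh arrays lay within the Vehicle range, and Shh 1 and Shh 3 lay below it. Its probe sets disagreed: the difference for both ligands was -0.43 and -0.42 log2 by the brighter pair of sets. By the dimmer pair, below the array medians on every array, it was 0.21 and -0.01.

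The upper part of glycolysis, from glucose to triose phosphate, had 10 members tested, of which none passed for both ligands. At an unadjusted p 7 were lower, against 8.41% of all genes. In 4 every ligand array lay below every Vehicle array, against 3.80%. Hk1, a hexokinase that commits glucose to the cell, was at 8.54, 8.39 and 8.47 log2 with Shh, 8.72, 8.60 and 8.49 with Ihh, and 8.93, 8.78 and 8.82 with Vehicle, a difference of -0.31 (SE 0.06, limma adjusted p = 0.0508). Hk2, the inducible hexokinase, was at 9.45, 9.32 and 9.45 with Shh, 9.48, 9.38 and 9.37 with Ihh, and 9.70, 9.55 and 9.59 with Vehicle, a difference of -0.21 (SE 0.06, limma adjusted p = 0.121). For both hexokinases the ligand and Vehicle arrays did not overlap by these sets. Another Hk1 set gave -0.40 (SE 0.12) with overlap, at 7.16 to 7.68 on ligand arrays and 7.52 to 8.15 on Vehicle arrays.

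The phosphofructokinase subunits, which form the committed step, did not lie together. Pfkl, the liver-type subunit, was at 8.79, 8.62 and 8.54 log2 with Shh, 8.93, 8.61 and 8.83 with Ihh, and 9.18, 9.22 and 8.97 with Vehicle, a difference of -0.40 (SE 0.09, limma adjusted p = 0.0589). Pfkp, the platelet-type subunit, differed by -0.27 (SE 0.12), with 8.38 to 8.93 on ligand arrays and 8.70 to 9.22 on Vehicle arrays. Pfkm, the muscle-type subunit, differed by 0.06 (SE 0.05), with 7.84 to 8.01 on ligand arrays and 7.75 to 7.89 on Vehicle arrays. Another probe set of Pfkl gave -0.29, with every ligand array below every Vehicle array. A Pfkl set that was below the array medians on every array gave 0.00. Other sets of Pfkp gave 0.21 and, below the array medians on every array, -0.18. Pfkfb3, which makes the activator fructose 2,6-bisphosphate, was at 7.38, 7.48 and 7.38 with Shh, 7.93, 7.78 and 7.67 with Ihh, and 8.31, 8.08 and 7.69 with Vehicle. Its Shh arrays were the 3 lowest, and Ihh 1 and Ihh 2 lay above Vehicle 3. For both ligands the difference was -0.42 (SE 0.12, limma adjusted p = 0.125). Pfkfb4, a related enzyme, differed by -0.13 log2 with overlapping groups.

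Aldoa, the main aldolase, was the tightest member on the Vehicle arrays. It was at 12.08, 11.95 and 12.08 log2 with Shh, 12.07, 11.96 and 12.05 with Ihh, and 12.21, 12.22 and 12.27 with Vehicle, so that a difference of -0.20 (SE 0.05, limma adjusted p = 0.0985) separated the groups. Tpi1, triosephosphate isomerase, was at 11.44, 11.48 and 11.38 with Shh, 11.72, 11.60 and 11.47 with Ihh, and 11.88, 11.84 and 11.64 with Vehicle, a difference of -0.27 (SE 0.07, limma adjusted p = 0.109). Ihh 1 alone reached above the lowest Vehicle array. Aldoc, the brain-type aldolase, differed by -0.23 log2 with overlap.

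In the lower part of glycolysis, from triose phosphate to pyruvate, 1 of 4 members fell, Pkm, against 1.07% of all genes. Pgk1, phosphoglycerate kinase, was at 12.15, 12.14 and 12.19 log2 with Shh, 12.25, 12.26 and 12.18 with Ihh, and 12.38, 12.32 and 12.31 with Vehicle, apart by -0.15 (SE 0.05, limma adjusted p = 0.169). Its other sets, at -0.12 log2 each, overlapped. Pgam1, phosphoglycerate mutase, and Eno2, an enolase best known from neurons, differed by -0.13 and -0.21 log2 and overlapped with Vehicle. Gapdh was read on control probe sets only: its 3' set was at 12.95 to 13.01 log2 with the ligands and 13.05 to 13.10 with Vehicle, while the middle and 5' sets overlapped. RNA quality was read as the 3' minus 5' level of Gapdh, itself a listed gene whose 3' set was lower with the ligands, and of Actb. For Gapdh it was -0.19 to -0.15 log2 on all ligand arrays but Ihh 1, which was at -0.04, against -0.08 to 0.03 on Vehicle arrays. For Actb it was 0.12 to 0.18 on ligand arrays and 0.15 to 0.28 on Vehicle arrays, which overlapped. The part of RNA quality in these results was not tested.

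Of the genes that decide the fate of pyruvate, Ldha, lactate dehydrogenase A, was at 11.89, 11.74 and 11.80 log2 with Shh, 11.92, 11.85 and 11.83 with Ihh, and 12.07, 12.00 and 11.97 with Vehicle. The groups did not overlap, and the difference of -0.18 (SE 0.05) did not pass (limma, adjusted p = 0.149). Pdk1, a kinase that inhibits pyruvate dehydrogenase in mitochondria, was at 7.99, 8.66 and 8.26 with Shh, 8.98, 8.80 and 8.73 with Ihh, and 9.20, 8.85 and 8.48 with Vehicle. By this probe set Ihh lay within the Vehicle range, and Shh reached below it. Its other sets gave -0.35 (SE 0.09), -0.35 (SE 0.19) and -0.35 (SE 0.20) for both ligands, without passing. By the set with the smallest SE, Shh arrays at 7.67 to 7.98 lay below all Vehicle arrays, at 8.21 to 8.45. By that set only Ihh 1 of the ligand arrays, at 8.28, lay above the lowest Vehicle array.

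**Figure D2:**
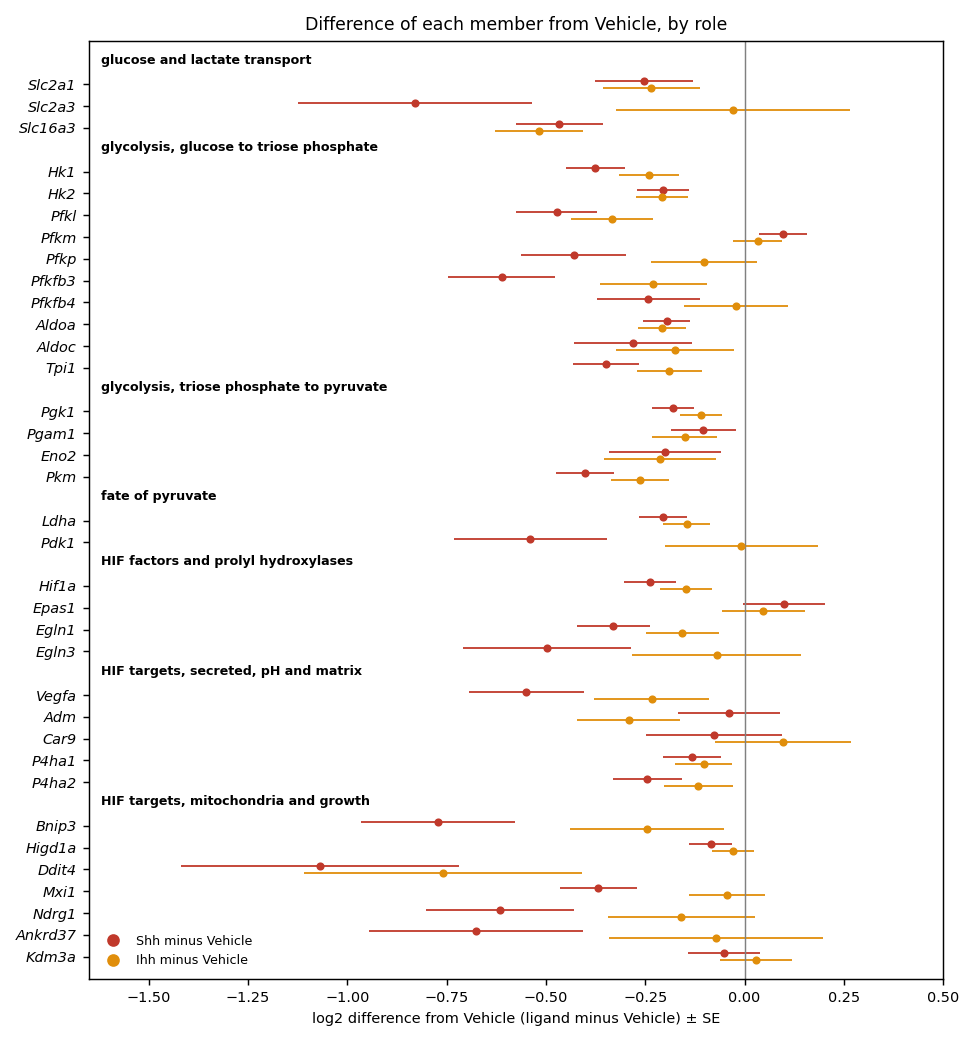
Log2 difference of Shh (red) and Ihh (orange) from Vehicle for the 35 members tested, grouped by role; points are limma's group differences and lines ± SE (3 arrays a group). Most points lie left of 0, with medians of -0.28 for Shh and -0.15 for Ihh, and the points of the pair part most for Slc2a3, Ankrd37, Pdk1 and Bnip3.

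Of 4 HIF factors and hydroxylases none passed for both ligands, and 2 were lower at an unadjusted p, against 8.41% of all genes. Hif1a, the inducible subunit, was at 12.12, 12.27 and 12.22 log2 with Shh, 12.36, 12.32 and 12.21 with Ihh, and 12.48, 12.47 and 12.38 with Vehicle, without overlap but with an adjusted p of 0.145 in limma. Epas1, the HIF-2 alpha subunit, differed by 0.07 (SE 0.09) and overlapped. Egln1, the main prolyl hydroxylase, differed by -0.24 (SE 0.08), with 8.58 to 8.94 on ligand arrays and 8.87 to 9.18 on Vehicle arrays. Egln3, a hydroxylase that HIF itself induces, was at 8.38, 8.71 and 8.73 with Shh, 9.27, 9.04 and 8.78 with Ihh, and 9.51, 9.21 and 8.59 with Vehicle, so Vehicle 3 stood among the lowest arrays.

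Of 5 HIF targets that are secreted or act on pH and matrix none passed. At an unadjusted p 2 were lower, against 8.41% of all genes. Vegfa, the vascular growth factor, was at 9.06, 9.33 and 9.24 log2 with Shh, 9.80, 9.47 and 9.31 with Ihh, and 10.02, 9.72 and 9.53 with Vehicle, a difference of -0.39 (SE 0.13, limma adjusted p = 0.189). Only Ihh 1 lay above the lowest Vehicle array. A second Vegfa probe set differed by -0.07. The collagen prolyl hydroxylase subunits P4ha1 and P4ha2 differed by -0.12 and -0.18, and another P4ha1 probe set by 0.34. Adm, a vasodilator peptide, differed by -0.17, and Car9, a carbonic anhydrase near the array medians, by 0.01, both with overlap.

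Of 7 HIF targets of mitochondria and growth control none passed, and 4 were lower at an unadjusted p, against 8.41% of all genes. Ddit4, an inhibitor of mTORC1, was at 8.30, 8.35 and 8.47 log2 with Shh, 9.25, 8.50 and 8.30 with Ihh, and 10.06, 9.73 and 8.55 with Vehicle, a difference of -0.91 (SE 0.30, limma adjusted p = 0.199). Its Vehicle arrays alone spanned 1.51 log2, and Vehicle 3 was close to the ligand arrays. The difference was -0.61 without Vehicle 1 (limma adjusted p = 0.581) and -1.36 without Vehicle 3 (limma adjusted p = 0.00973), which passed. Bnip3, a mitophagy receptor, was at 9.25, 9.49 and 9.43 with Shh, 10.30, 9.80 and 9.65 with Ihh, and 10.53, 10.16 and 9.80 with Vehicle, a difference of -0.51 (SE 0.17, limma adjusted p = 0.198). Ndrg1, a stress-induced gene, and Ankrd37, an ankyrin-repeat gene, differed by -0.39 and -0.37, Mxi1, a MYC antagonist, by -0.21, and Higd1a and Kdm3a by -0.06 and -0.01. The 3 probe sets shared by Bnip3l and its pseudogene overlapped between ligand and Vehicle arrays.

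The Vehicle pools differed among themselves over these genes. Vehicle 1 was the highest Vehicle array in 27 of 35 members (77.1%), against 37.2% of all genes, and Vehicle 3 the lowest in 25 (71.4%), against 32.5%. Ihh 1 was the highest Ihh array in 26 members (74.3%, against 41.7% of all genes) and Ihh 3 the lowest in 24 (68.6%, against 37.0%). In the 7 HIF targets of mitochondria and growth, Vehicle 1 was highest and Vehicle 3 lowest in all 7. The Vehicle range exceeded the difference between ligands and Vehicle in 23 of 35 members (65.7%), against 81.6% of all genes. Averaged over the 35 members and set against the Vehicle mean, Shh 1, 2 and 3 were at -0.37, -0.33 and -0.31 log2, Ihh 1, 2 and 3 at -0.02, -0.19 and -0.26, and Vehicle 1, 2 and 3 at 0.18, 0.00 and -0.18. Vehicle 1 was also the Vehicle pool with high Xist, whereas Ihh 1 had the lowest Xist of the Ihh pools. Set against the Vehicle mean, 10 epithelium markers averaged 0.87, 0.11 and -0.97 log2 in Vehicle 1, 2 and 3. They averaged 0.68, 0.55 and -0.32 in Ihh 1, 2 and 3, so both groups ran in the members' order. The Shh arrays, at 0.12, -0.90 and 0.98, did not. The part of Xist or of epithelium in these orders was not tested.

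**Figure D3:**
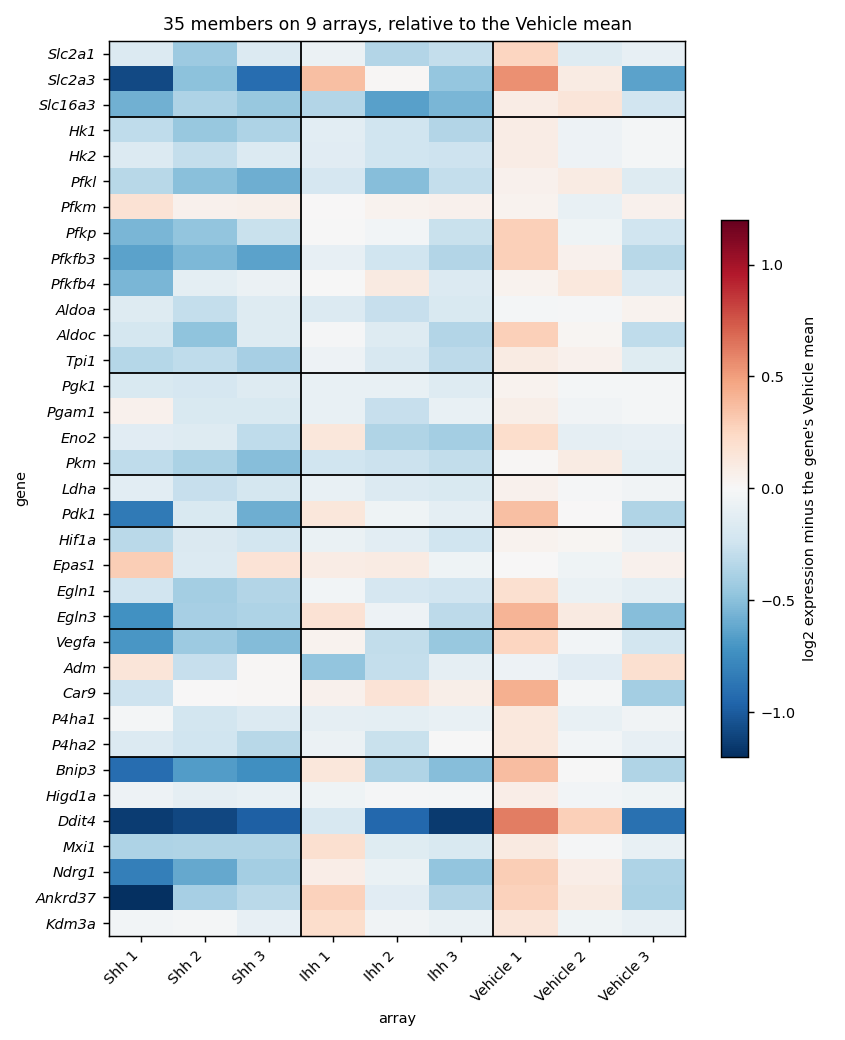
Log2 expression of the 35 members (rows, in order of role, black lines between roles) on 9 arrays (columns), as the difference from each gene's Vehicle mean; blue is lower and red higher. The Shh arrays are the most evenly blue, Ihh 1 and Vehicle 1 are the reddest of their groups, and Ddit4 runs between 8.30 and 10.06 log2.

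Shh was compared with Vehicle to give that ligand's own response. Pkm and Hk1 fell, by 0.40 log2 (SE 0.07, limma adjusted p = 0.0297) and by 0.38 (SE 0.07, limma adjusted p = 0.0390), and no member rose. These 2 of 35 stood against 1.24% of all genes that fell. At an unadjusted p, 23 members were lower (65.7%, against 10.7% of all genes), and in 22 all Shh arrays were below all Vehicle arrays (62.9%, against 11.4%). The median was -0.28 log2, against 0.01 for all genes, and 33 of 35 members were below 0. Just short of the threshold were Pfkl at -0.47 (limma adjusted p = 0.0533), Pfkfb3 at -0.61 (0.0565), Slc16a3 at -0.47 (0.0689) and Tpi1 at -0.35 (0.0693). Pkm and Hk1 both passed only without Ihh 1, Ihh 3 or Vehicle 3. Without Vehicle 3 the number of members that fell was 13, and that of all genes was 529, against 225 with all arrays. Without Shh 2, Shh 3, Ihh 2, Vehicle 1 or Vehicle 2 no member fell, and 62 to 119 of all genes did. The number of members was 1 without Shh 1, where 128 of all genes fell. It was 0 when the Shh and Vehicle arrays alone were fitted, where 167 of all genes fell.

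Ihh was compared with Vehicle in the same way. No member passed limma's test, against 0.456% of all genes that fell, and 10 were lower at an unadjusted p (28.6%, against 5.63%). In 11 members all Ihh arrays were below all Vehicle arrays (31.4%, against 8.15%). The median difference was -0.15 log2, against -0.01 for all genes. Among these 11 were Slc16a3 at -0.52 (SE 0.11, limma adjusted p = 0.0881), Pfkl at -0.33 and Pkm at -0.26. Leaving out Vehicle 3 gave 2 falls, Ddit4 and Slc16a3, and there 198 of all genes fell, against 83 with all arrays. Without Vehicle 1 the count at an unadjusted p was 6 and the median was -0.06, and without Ihh 2 that count was also 6. Ihh and Vehicle arrays were also paired by number in a fit of these groups alone, a pairing taken from these same values. There none passed, and the median was still at -0.15. At an unadjusted p 20 were lower, but the share of all genes in that fit was not counted. The rise from 10 therefore cannot be read as particular to the members. Within the pairs the mean over the 35 members differed by -0.20, -0.20 and -0.08 log2. The comparisons of Shh and of Ihh share the Vehicle arrays.

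Shh was compared with Ihh directly to ask whether the ligands differed. No member passed limma's test, where 0.0110% of all genes did in either direction. At an unadjusted p, 8 members were lower with Shh (22.9%, against 5.97% of all genes) and none was higher, and in 9 all Shh arrays were below all Ihh arrays (25.7%, against 7.93%). Mxi1 had the smallest p, at -0.32 log2 (SE 0.10, limma adjusted p = 0.307): it was at 8.68, 8.69 and 8.68 with Shh and at 9.24, 8.91 and 8.87 with Ihh. The other 7 were Slc2a3 at -0.80, Ankrd37 at -0.60, Pdk1 and Bnip3 at -0.53, Ndrg1 at -0.46, Pfkfb3 at -0.38 and Pfkp at -0.33. The count at an unadjusted p was 1 without Ihh 1, 2 without Shh 1, 5 without Ihh 2 and 12 without Ihh 3. For some enzymes with tight arrays the 95% intervals of the difference were -0.30 to 0.02 log2 for Pkm, -0.19 to 0.07 for Ldha, -0.14 to 0.15 for Hk2 and -0.12 to 0.15 for Aldoa. For Pkm and Ldha they reached about as far as the differences of both ligands from Vehicle, -0.33 and -0.18. They therefore do not show that the ligands were alike.

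Every probe set was also tested singly, since 21 members have several. Of 74 member probe sets 5 fell for both ligands, against 0.672% of 34945 sets, and 67 were below 0. They belonged to Aldoa, Hif1a, Pkm, Slc16a3 and Tpi1. For Hif1a the set that fell, by 0.47 log2 (SE 0.08, limma adjusted p = 0.0302), was at 9.83 to 10.26 with the ligands and 10.33 to 10.51 with Vehicle. For Tpi1 the set that fell was at 10.36 to 10.67 with the ligands and 10.76 to 10.97 with Vehicle. Of the 9 members whose groups were apart by the set tested, Hk1, Pfkl, Aldoa, Pgk1 and Hif1a each had another set in which the groups overlapped. In 16 of the 21 genes all sets had a difference of 1 sign, and in 5 (Epas1, P4ha1, Pfkl, Pfkp and Slc2a3) they did not. Without passing, sets of Slc2a3 (0.21, limma unadjusted p = 0.0026), P4ha1 (0.34, limma unadjusted p = 0.0123) and Pfkp (0.21, limma unadjusted p = 0.0319) were higher. That Slc2a3 set, below the array medians on every array, had all ligand arrays above all Vehicle arrays.

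Lists of other genes of these pathways were fitted in the same way. Of all 18193 genes, 1530 were lower and 955 higher at an unadjusted p for both ligands. Of 21 other glycolysis and transport genes none passed for both ligands, 3 were lower and 2 higher at an unadjusted p, and the median was -0.01 log2. Slc16a1, the transporter MCT1, was nearest at -0.44 (SE 0.12, limma adjusted p = 0.105), and Slc16a7, the transporter MCT2, and Slc2a4, the insulin-responsive glucose transporter, were at 0.37 and 0.27. None of 28 genes of pyruvate and oxidative metabolism passed, 3 were lower and 1 higher at an unadjusted p, and the median was 0.01. Mpc1, a subunit of the mitochondrial pyruvate carrier, was at 10.02 to 10.17 with the ligands and at 9.73 to 9.94 with Vehicle (0.25, SE 0.06, limma adjusted p = 0.0817). None of 7 pentose phosphate genes passed, and 1 was lower at an unadjusted p, Pgd, which yields NADPH, at -0.27 (limma, adjusted p = 0.0875). None of 13 other HIF regulators passed, and 1 was higher at an unadjusted p, Rbx1, a ubiquitin ligase subunit, at 0.23.

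Of 36 other hypoxia genes 1 fell for both ligands, against 1.07% of all genes. It was Angptl4, a lipoprotein lipase inhibitor, at -0.32 log2 (SE 0.06, limma adjusted p = 0.0348). For Shh 4 fell, against 1.24% of all genes. These were Angptl4 by 0.46, Flt1, a VEGF receptor, by 0.79, Car12, a carbonic anhydrase, by 0.53, and Hilpda, a lipid droplet protein, by 0.41. The list's median for both ligands was -0.13, and 28 of 36 genes were below 0. At an unadjusted p 13 were lower (36.1%, against 8.41% of all genes) and 1 was higher. For Shh 17 were lower at an unadjusted p (47.2%, against 10.7%), and in 15 all Shh arrays were below all Vehicle arrays (41.7%, against 11.4%). The count of genes called for both ligands was 0 to 2 with an array left out. Flt1 was at 7.80, 8.03 and 8.01 with Shh, 8.80, 8.55 and 8.25 with Ihh, and 8.91, 8.73 and 8.56 with Vehicle.

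Markers of some other cell types also lay lower with the ligands. All 10 endothelium markers were below 0 for both ligands, 7 were lower at an unadjusted p, against 8.41% of all genes, and none passed. Their summed level was 12.23 to 12.64 log2 on ligand arrays and 12.50 to 12.74 on Vehicle arrays. Within the Ihh group Ihh 1 was highest in 9 of 10 and Ihh 3 lowest in 9, and within Vehicle, Vehicle 3 was lowest in 8. For Shh alone Cdh5, the endothelial cadherin, fell by 0.59. Of 10 macrophage markers 4 fell (Cd14, Adgre1, Itgam and Lyz2), against 1.07% of all genes, 6 were below 0 and 4 above. Tyrobp, an adaptor of myeloid receptors, had all ligand arrays above all Vehicle arrays without passing (limma adjusted p = 0.278). The summed macrophage level was 14.20 to 14.33 on ligand arrays and 14.41 to 14.52 on Vehicle arrays. Summed epithelium markers ranged from 9.83 to 12.25 on ligand arrays and from 9.74 to 12.19 on Vehicle arrays, and 4 red blood cell markers summed to 6.35 to 6.55 on ligand arrays and 6.32 to 6.43 on Vehicle arrays. The part of any of these in the members' differences was not tested.

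**Figure D4:**
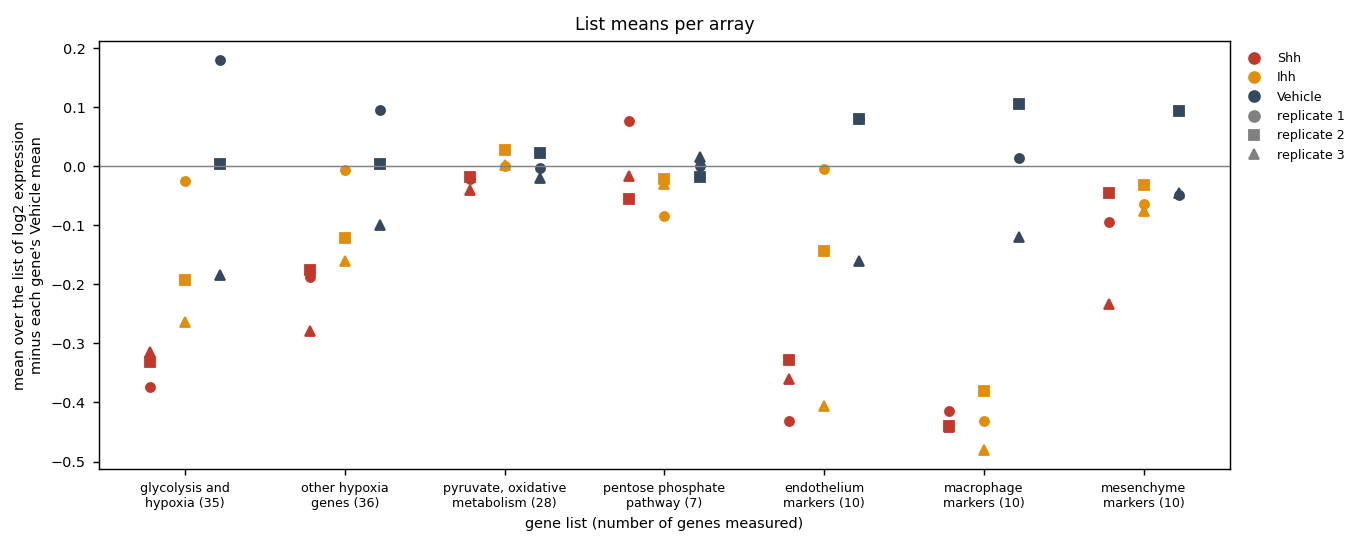
Mean over each list of log2 expression minus the gene's Vehicle mean, per array (symbols as replicates), for Shh, Ihh and Vehicle. The Shh arrays of the 35 members lie at -0.37 to -0.31 and Vehicle 1 at 0.18, the 28 oxidative genes stay near 0, all ligand arrays lie below Vehicle for the macrophage markers, and for the endothelium markers Ihh 1 and Ihh 2 overlap with Vehicle.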

How the data were processed

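Affymetrix arrays were made from biotin-labelled cRNA of 6 ug total RNA. The values deposited by the authors are log2 expression, 1 per probe set on each of 45101 probe sets. The submitters' processing notes name GCOS and RMA, without versions. Their range, 2.78 to 14.20, fits a log2 scale. RMA equalises the arrays, which hides any common shift and compresses low levels. The number of arrays limits the precision.

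The platform annotation named the probe sets, and RefSeq (GRCm38.p6) supplied names and promoter windows. A gene was its single-symbol, non-control probe set of highest mean. Group means of all 9 arrays were fitted with lmFit and eBayes (limma 3.58.1, R 4.3.3). Tests were two-sided, with Benjamini-Hochberg adjustment over 18193 genes, or over 34945 probe sets where sets were tested singly, and all adjusted p are limma's. The steps were also run on simulated data with independent noise of the same spread on every array. Deviations shared between arrays and arrays of unequal weight, both seen here, were not simulated. Figures used matplotlib 3.10.9. Motifs were searched on both strands.

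The members and lists were chosen with earlier results of these data known. All members are named. Of each other list the called genes, or up to 3 with the smallest p, could be named. Vehicle 1, Vehicle 3, Xist, Eif2s3y and the order of the epithelium markers were singled out after their values were seen. Wells were pooled at random, per the labels' protocols, yet deviations of same-numbered Ihh and Vehicle arrays from their group means correlated at 0.35, 0.23 and 0.54, so these numbers were treated as pairs in an alternative added after seeing the data. Of the other 6 same-numbered pairs, at -0.30 to 0.14, 1 was over 0.1. Arrays of different number and group correlated at up to 0.29 (Shh 1 with Ihh 3) and down to -0.48 (Ihh 3 with Vehicle 1). Ihh 2 correlated with Vehicle 1 at 0.22, so these values do not establish the pairs. The other alternatives were 9 settings and leaving out each of 9 arrays.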

Additional observations from a re-analysis of the deposited data

How the results depend on the processing

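For both ligands against Vehicle, 274 genes were called, and 1126 with array weights, which ran from 0.62 (Vehicle 3) to 3.04 (Vehicle 2); leaving out each array in turn gave 99 to 416. Members called numbered 2, against 5 with the replicate block, 4 with arrays centred on their medians, 4 with the mean of probe sets, 5 with the trended and robust variance model and 11 with array weights; leaving out each array gave 0 to 6. For Shh against Vehicle they numbered 2, against 6 with the replicate block, 1 with repeated quantile normalization, 4 with centred arrays, 4 without dim genes, 7 with the trended and robust model, 11 with array weights and 0 with the compared groups alone; leaving out each array gave 0 to 13. For Ihh against Vehicle they numbered 0, against 4 with array weights, and 0 to 2 with an array left out. For Shh against Ihh they numbered 0 in every setting. Calls over all genes moved too. For Shh they numbered 314, against 1017 with array weights, 222 to 522 in the other settings named and 80 to 675 with an array left out. For Ihh they numbered 118, against 498 with array weights and 53 to 229 with an array left out. Counts at an unadjusted p with an array left out have no share of all genes beside them. No called member rose in any of these settings, and the cause of the changes was not tested. The median differences of members kept their sign in every setting, and with an array left out ran from -0.29 to -0.15 for both ligands, -0.39 to -0.22 for Shh and -0.22 to -0.06 for Ihh. For both ligands and single members, 564 results kept sign and side of the threshold, 28 passed it, 14 lost it (Pkm and Slc16a3, 7 each, all with an array left out) and 16 changed sign, none of them called in either setting. Car9 (0.0098) was at -0.0024 with repeated quantile normalization and -0.0093 with centred arrays, and with an array left out ran from -0.19 to 0.22, below 0 in 5 fits. Kdm3a (-0.012) was at 0.024 with repeated quantile normalization and 0.0011 with array weights, and with an array left out ran from -0.058 to 0.063, above 0 in 4 fits. P4ha1 (-0.12) was at 0.11 with the mean of probe sets. With probe sets of suffix _x, _s or _a left out, Pfkl (-0.40) was at 0.0030 and Slc2a3 (-0.43) at 0.21. The sets then read for these genes were dim and below the array medians on every array. They lay at 5.42 to 5.61 log2 for Pfkl and at 4.25 to 4.57 for Slc2a3. An array left out moved 22 members by over 1.5 times, 18 of them without Vehicle 1 and 9 without Vehicle 3. Hk1 passed without Ihh 1, and Pfkfb3, Pfkl, Tpi1 and Ddit4 without Vehicle 3. Slc16a3 is too dim to enter the setting without dim genes.

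For Ihh against Vehicle the replicate block changed no call, in the fit of all groups or of these groups alone, with 0 members called.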
